A study of Mus musculus with 4 samples.

Results

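Genes for pre-mRNA splicing factors and related RNA-binding proteins were followed in the livers of mice that make viral oncoproteins. They were taken by gene symbol: every probe set whose 1 platform symbol begins with Hnrnp, Srsf, Snrp, Sf3, U2af, Prpf or Ptbp, or with Rbm followed by a digit or an x. This gave 91 probe sets of 68 genes among the 12488 probe sets of the array. The rule reads the symbols and no signal, but it was written with earlier results of these data known. A further 2 probe sets, of Hnrnpa1 and of Rbm3, carry a pseudogene's symbol beside the gene's and were left out. The members fall into 7 classes by symbol: 22 probe sets of hnRNP proteins, 3 of PTB proteins, 16 of SR proteins, 10 of snRNP proteins, 13 of SF3 and U2AF proteins, 10 of PRPF proteins and 17 of RBM proteins.

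The mice were males of a B6SJL hybrid background, 50 to 66 days old. After weaning all of them ate a diet of 65% protein and 10% carbohydrate for 4 weeks, so the control group shares the diet. The transgenic group carries PEPCK-TAg, which puts the large T and small t oncoproteins of SV40 under the promoter of the PEPCK gene, a promoter active in hepatocytes and induced by food rich in protein. The wild-type group carries no transgene. Each group had 2 Affymetrix MG_U74Av2 arrays of total liver RNA. The labels do not say whether both arrays of a group stand for separate animals, so p-values measure only the spread between these arrays, which may be technical.

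Splicing removes introns from new transcripts. The spliceosome is built from small nuclear RNAs packed into particles (snRNPs) by Sm and particle-specific proteins. U2AF and SF3 proteins recognise the 3' splice site and the branch point, PRPF proteins drive assembly and activation, and the exon junction complex marks joined exons. SR proteins mostly promote the use of exons, while hnRNP and PTB proteins often repress it, and many members of both families also act in export, stability and translation of mRNA. Large T binds the RB family and p53, and livers that make it contain dividing hepatocytes.

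Splicing-factor transcripts were on the whole higher in PEPCK-TAg liver. Of the 91 probe sets, 81 (67 genes) had a signal (the array's summary brightness, in MAS5 units) above 41.3 on at least 2 of the 4 arrays and were tested. A probe set is said to be called, to have risen or to have fallen where limma's moderated test gave a Benjamini-Hochberg adjusted p under 0.05 over all 7877 probe sets tested. In that sense 17 of the 81 members rose (21.0%), each from a different gene, against 9.10% of all probe sets tested. None fell, against 3.40% of all, and 3 had a lower signal at an unadjusted p under 0.05. The rises ran from 2.04-fold for Srsf2 to 5.78-fold for Srsf3. The median log2 difference (PEPCK-TAg minus wild-type, on means of log2 signals) was 0.61 over the members and 0.051 over all probe sets tested, and 62 of the 81 differences were positive. Both PEPCK-TAg arrays lay above both wild-type arrays in 49 members (60.5%, against 33.3% of all probe sets tested) and below both in 4 (4.94%, against 26.5%). These shares describe the members and carry no test of the list. Quantile normalization lowered the median of all probe sets to -0.088 and that of the members to 0.53, and it turned the sign of 7 uncalled members: Srsf10, Hnrnpu, Hnrnpab, Snrpb, Ptbp2, Prpf38b and U2af2.

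When a transgenic array was left out, the log2 differences shifted little for some called members and more for others, and the calls were lost. Without PEPCK-TAg 1 or 2 that group is a single array, the spread comes from the wild-type pair alone, and no probe set of the whole array was called by limma (1348 and 1433 had an unadjusted p under 0.05). Lost calls in so small a design say little about the members. Srsf3 gave 2.44 and 2.62 in these fits, against 2.53 with all arrays, and Hnrnpr gave 1.08 and 1.73, against 1.41. The median over the members was 0.54 and 0.80, against 0.61. Without wild-type 1 all 17 kept their call, and without wild-type 2 all but Hnrnpa2b1, Prpf38a, Srsf2 and Srsf9 did. PEPCK-TAg 2 was the only array run on the second fluidics station, so a block for station has the effect of leaving that array out and gave the same differences, with 0 members called.

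The livers also differed in markers of cell division and of blood cells. Of 33 mitosis and S phase genes tested 31 rose (median log2 difference 3.14), with summed signals of 3289.3 and 2753.8 in wild-type liver against 28845.2 and 26705.2. In 11 of the 33 no wild-type array was above the filter level, against 399 of all 7877 probe sets tested. Such genes passed the filter through the PEPCK-TAg arrays alone, so the count and the median partly follow from the filter. Myeloid markers rose in 14 of 21 cases (summed signals 2252.1 and 2159.3 against 11992.7 and 16166.3) and erythroid markers in 9 of 12 (3396.4 and 3505.5 against 11008.9 and 15555.9). Of these, 9 of the 21 and 3 of the 12 were likewise above the filter level on no wild-type array. The largest myeloid rises were S100a9 and Ngp (6.85 and 6.39), while Csf1r, Clec4f, Cd68, Adgre1, Cybb, Elane and Spi1 were uncalled at 0.36 to 1.61. Among erythroid markers Epor, Gata1 and Alas2 were uncalled, Alas2 at -0.57. Hepatocyte markers, which identify the labelled tissue, were each above the filter level on at least 1 array, and 2 of 15 fell, Ttr and Tat (summed signals 123742.5 and 125971.4 against 79027.0 and 101312.9). Of the 15, 10 were lower without overlap (66.7%, against 26.5% of all probe sets tested) and 2 were higher without overlap. Their median log2 difference was -0.46. Biliary and progenitor markers gave 3 rises among 4 tested, Anxa2, Krt18 and Cldn7, while Cftr was uncalled at -0.73, without overlap. The summed signals of the list were 1559.8 and 1547.6 against 3107.5 and 3615.1. Krt18 alone made up 1228.7 and 1254.2 against 2355.4 and 2927.8 of them. Cldn7 read 4.1 and 2.8 against 41.8 and 83.3, so it passed the filter through the PEPCK-TAg arrays alone. Krt19, Krt7 and Epcam were below the filter level on all arrays. Whether Krt18 and Anxa2 mark biliary or progenitor cells in these livers was not tested. Endothelial and stellate markers gave 2 rises among 17 (11.8%, against 9.10% of all probe sets tested) and 1 fall (5.88%, against 3.40%). Icam2, 1 of the rises, read 8.9 and 14.4 against 53.6 and 56.4 and passed the filter through the PEPCK-TAg arrays alone. The summed signals of this list were 7441.0 and 6542.9 against 5210.9 and 5368.6. Of 5 lymphocyte markers tested, Ccl5 and Ltb rose, while Cd4, Ms4a1 and Cd79a were uncalled at -0.93, -0.65 and -0.56, all without overlap. Ccl5 read 9.9 and 7.7 against 44.9 and 45.9, and Ltb 14.9 and 15.6 against 94.7 and 47.0. Both passed the filter through the PEPCK-TAg arrays alone. The summed lymphocyte signals were 441.8 and 442.2 against 450.2 and 420.8, with Cd3e and Cd3g below the filter level on all arrays. The part of these cell types and of division in the splicing-factor differences was not tested. In whole-liver RNA more cells of a type and more RNA per cell cannot be told apart.

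**Figure D1:**
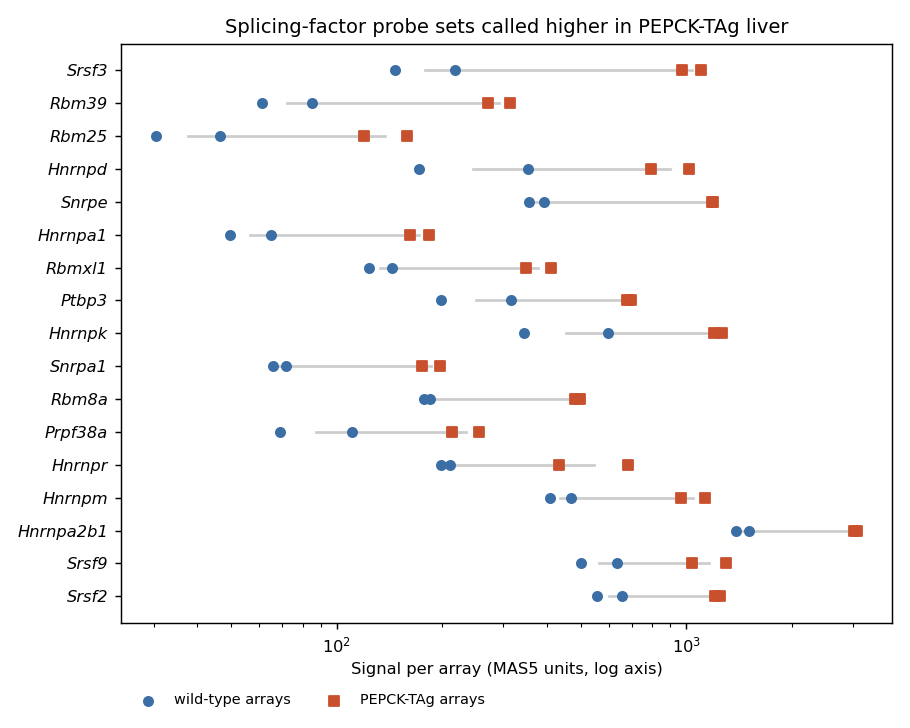
Signals of the 17 splicing-factor probe sets called higher, 1 row per gene, on a log axis in MAS5 units. Circles are the 2 wild-type arrays, squares the 2 PEPCK-TAg arrays, and the grey line joins the group means of the log signals. In every row both squares lie to the right of both circles, with Srsf3 at the top (2.53 on the log2 scale) and Srsf2 at the bottom (1.03).

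SR proteins are built from RNA recognition motifs and a tail rich in arginine and serine. Srsf3, the smallest of the family and also an adaptor for mRNA export, had the largest rise of all members tested. Its probe set read 217.9 and 147.1 in wild-type liver, against 1099.8 and 974.6 with the transgene, a 5.78-fold rise (log2 difference 2.53 ± 0.28 SE, n = 2 arrays in each group throughout, limma adjusted p = 0.00325). Its suffix (_f_at) marks probes that also match related sequences, so relatives can add to it. The second Srsf3 probe set is dimmer and its groups overlapped, with 34.6 and 66.7 in wild-type against 83.9 and 47.3 in PEPCK-TAg liver (0.39 ± 0.49 SE, adjusted p = 0.627). The rise of Srsf3 therefore rests on 1 of its 2 probe sets.

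Srsf2 (SC35), a marker protein of nuclear speckles, showed the same split in a milder form. One probe set rose 2.04-fold, from 652.5 and 556.5 to 1246.7 and 1208.7 (1.03 ± 0.23 SE, adjusted p = 0.0329). The brighter one read 2982.3 and 2884.6 in wild-type, against 3501.7 and 3936.8 in PEPCK-TAg liver, a small difference with no overlap (0.34 ± 0.21 SE, adjusted p = 0.329). Both carry a suffix (_s_at) for probes shared between transcripts. Srsf9, which antagonises hnRNP A1 at some exons, rose 2.07-fold, from 631.8 and 499.2 to 1038.6 and 1297.0 (1.05 ± 0.25 SE, adjusted p = 0.0434), and just missed the threshold under quantile normalization (adjusted p = 0.0519).

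Srsf1, the founding member of the family, has 4 probe sets, of which 2 passed the filter and neither was called. The brighter read 129.9 and 182.1 in wild-type, against 343.6 and 159.8 in PEPCK-TAg liver (0.61 ± 0.42 SE, adjusted p = 0.371), so that only PEPCK-TAg 1 stood high. The dimmer read 30.5 and 53.2 against 98.7 and 58.6 (0.92 ± 0.46 SE, adjusted p = 0.231), again with PEPCK-TAg 1 highest. The probe sets not tested read 5.2 and 12.1 against 3.1 and 21.8, and 23.1 and 13.3 against 58.2 and 30.4. Srsf6 gave 613.3 and 560.7 against 960.5 and 734.8 (0.52 ± 0.25 SE, adjusted p = 0.212), with no overlap. Srsf5, an SR protein that responds to insulin in liver, gave 590.5 and 1194.6 against 910.1 and 1227.9 (0.33 ± 0.37 SE, adjusted p = 0.587), with wild-type arrays that lay further apart than the groups. The remaining SR probe sets, of Srsf4, Srsf10 and Srsf11, overlapped between the groups, with log2 differences from -0.29 to 0.40. In all, 3 of 14 SR probe sets tested were called, and their median log2 difference was 0.40. This median rested on single arrays, at 0.85 without wild-type 2 and 0.68 without PEPCK-TAg 2.

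The hnRNP proteins coat new transcripts and gave the largest number of calls, 6 of 19 probe sets tested. Hnrnpd (AUF1), which binds AU-rich elements of unstable mRNAs, rose 3.64-fold, from 352.3 and 171.8 to 791.1 and 1015.3 (1.86 ± 0.38 SE, adjusted p = 0.0250). Its wild-type arrays lay far apart, and the pair of arrays scanned on 1 day gave a log2 difference of 1.17. Hnrnpa1, a repressor of splice sites, rose 3.04-fold, from 64.8 and 49.6 to 162.1 and 183.5 (1.61 ± 0.31 SE, adjusted p = 0.0217). Many processed pseudogenes resemble Hnrnpa1, and its signal can include them. Hnrnpk, which binds C-rich RNA and DNA, rose 2.72-fold, from 597.9 and 342.6 to 1268.6 and 1198.9 (1.45 ± 0.31 SE, adjusted p = 0.0308).

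Hnrnpr rose 2.65-fold, from 198.9 and 211.0 to 681.1 and 432.9 (1.41 ± 0.30 SE, adjusted p = 0.0286, and 0.0523 under quantile normalization). Its wild-type arrays agreed closely and PEPCK-TAg 1 was the highest. Hnrnpm, a regulator of exon choice in epithelial cells, rose 2.39-fold, from 407.3 and 466.8 to 1131.3 and 963.1 (1.26 ± 0.24 SE, adjusted p = 0.0192). Hnrnpa2b1, which packages and sorts RNA, rose 2.10-fold from an already high level, 1510.2 and 1390.2 to 3083.3 and 3007.9 (1.07 ± 0.21 SE, adjusted p = 0.0234). Its second probe set gave a difference of like size with wider spread, 335.3 and 234.8 against 712.8 and 511.4 (1.11 ± 0.30 SE, adjusted p = 0.0607).

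Other hnRNP genes lay near the threshold or gave no clear difference. Hnrnph1, which binds runs of G, read 822.2 and 1094.9 against 2200.5 and 1553.5 (0.96 ± 0.28 SE, adjusted p = 0.0715). Hnrnpll, a relative of hnRNP L that governs exon choice in lymphocytes, read 458.4 and 318.6 against 730.9 and 683.2 (0.89 ± 0.27 SE, adjusted p = 0.0811). In both genes the groups did not overlap. Hnrnpdl, the nearest relative of Hnrnpd, gave 0.86 and 0.52 in its 2 tested probe sets, neither called and both without overlap. By contrast Hnrnpu, the scaffold protein SAF-A, read 230.0 and 433.4 against 404.5 and 293.7 (0.13 ± 0.37 SE, adjusted p = 0.847), and Hnrnpc read 168.3 and 158.7 against 167.5 and 141.9 (-0.084 ± 0.27 SE). Hnrnph3 (-0.25), Hnrnpl (0.36) and Hnrnpab (0.15) were also uncalled, and the probe sets of Hnrnpul2 disagreed in sign (1.02 and -0.35). The hnRNP class median was 0.89, and it lay between 0.74 and 0.99 with single arrays left out.

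PTB proteins bind pyrimidine-rich tracts and repress nearby exons. Ptbp3, a paralog first described in blood-forming cells, rose 2.74-fold, from 199.4 and 316.1 to 695.7 and 677.9 (1.45 ± 0.29 SE, adjusted p = 0.0250). Ptbp2, the paralog typical of neurons, gave 64.1 and 66.8 against 80.5 and 66.4 in its tested probe set (0.16 ± 0.33 SE, adjusted p = 0.777). The Ptbp2 probe set not tested read 10.2 and 3.1 against 40.7 and 26.2, all below the filter level. Ptbp1, the form found in most tissues, had no probe set with its symbol alone.

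**Figure D2:**
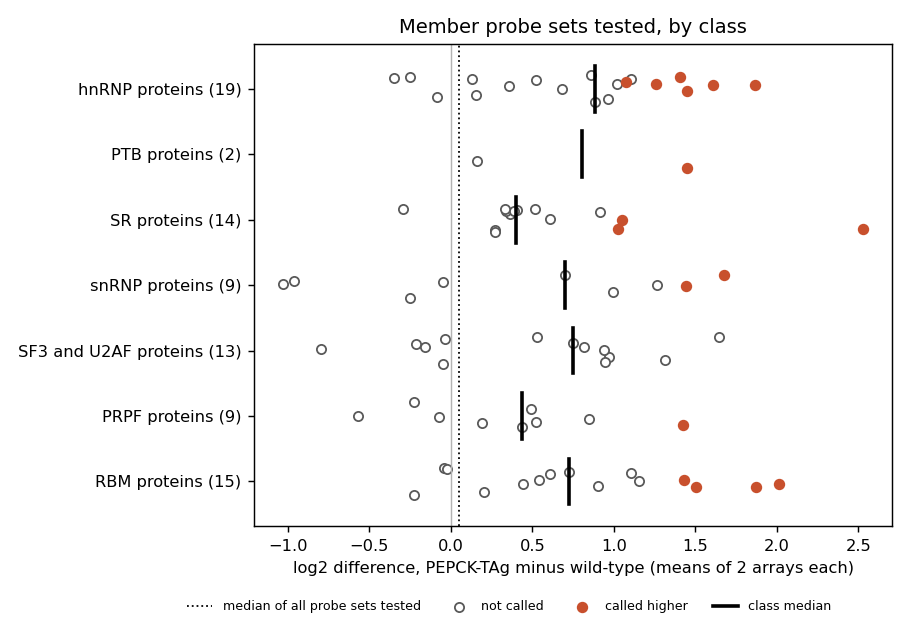
Log2 difference of each of the 81 member probe sets tested, by class, with the number tested in brackets. Filled points were called higher, open points were not called, the black bar is the class median and the dotted line the median of all probe sets tested (0.051). Called points occur in every class except SF3 and U2AF, and all 7 class medians lie to the right of the dotted line.

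The snRNP class split into genes that rose and genes that did not. Snrpe, a subunit of the Sm ring that all major spliceosomal snRNPs share, rose 3.19-fold, from 392.3 and 354.2 to 1183.3 and 1193.9 (1.67 ± 0.22 SE, adjusted p = 0.00629). Arrays of 1 group differed by little here, and the call held with no filter on dim probe sets, which only Rbm8a shared. Its probe set has the suffix for sequence families and can take in relatives. Snrpa1, a protein specific to the U2 particle, rose 2.71-fold, from 71.7 and 65.7 to 197.9 and 175.2 (1.44 ± 0.29 SE, adjusted p = 0.0235).

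Further Sm proteins did not all follow. Snrpg read 99.6 and 146.8 against 243.0 and 347.1 (1.26 ± 0.33 SE, adjusted p = 0.0538), without overlap. Snrpd3 read 54.0 and 113.0 against 140.7 and 172.7 (0.996 ± 0.41 SE, adjusted p = 0.164), also without overlap. Snrpb, one of the brightest members, read 3559.8 and 2589.9 against 2375.4 and 2730.3 (-0.25 ± 0.25 SE, adjusted p = 0.536). Quantile normalization gave it a positive sign, and its second probe set stayed at 5.3 or below on all arrays. The U1 protein Snrpc gave -0.049 ± 0.26 SE, and the 2 probe sets of Snrpb2 disagreed in sign (0.70 and -0.97). A probe set assigned to the pseudogene Snrp1c-ps2 had the lowest difference of all members, with 167.5 and 330.2 against 108.8 and 121.8 (-1.03 ± 0.38 SE, adjusted p = 0.125). Of 9 snRNP probe sets tested 2 were called, with a class median of 0.70 (0.46 without wild-type 1). That median is the value of a Snrpb2 probe set that was above the filter level on the PEPCK-TAg arrays alone, so the class value rests on a dim member.

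Among SF3 and U2AF proteins, which recognise the branch point and the 3' splice site, none of 13 probe sets was called, although 5 were higher and 1 lower at an unadjusted p under 0.05 in limma. SF3 subunits mostly leaned upward. Sf3a3 came closest, with 298.5 and 269.3 against 617.5 and 501.5 (0.97 ± 0.25 SE, adjusted p = 0.0511). Sf3b1, which contacts the branch point, read 263.6 and 149.1 against 568.5 and 426.2 (1.31 ± 0.35 SE, adjusted p = 0.0559), and 123.7 and 22.7 against 271.6 and 101.5 in a second probe set (1.65 ± 0.83 SE, adjusted p = 0.237). Sf3b3, Sf3b2, Sf3b5 and Sf3b6 gave 0.95, 0.94, 0.82 and 0.75, each without overlap. Sf3a2 went the other way in the probe set that read 794.7 and 775.7 against 423.2 and 482.0 (-0.80 ± 0.23 SE, adjusted p = 0.0704), and its groups overlapped in the other (-0.21 ± 0.38 SE).

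The U2AF subunits showed no difference beyond their error. U2af2, the large subunit, which binds the pyrimidine tract, read 1650.0 and 1841.9 against 1635.4 and 1734.3 (-0.050 ± 0.22 SE, adjusted p = 0.902; the sign turned under quantile normalization). U2af1, the small subunit, read 317.5 and 641.2 against 452.8 and 361.6 (-0.16 ± 0.37 SE, adjusted p = 0.810), and its paralog U2af1l4 gave -0.037 ± 0.26 SE. All 3 overlapped between the groups. A p above the threshold does not show that they were equal. The class median was 0.75, and 0.39 without wild-type 2.

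PRPF proteins carry out assembly and activation, and 1 of 9 probe sets tested rose (11.1%), a share near the 9.10% of all probe sets tested. Prpf38a, needed to activate the assembled spliceosome, rose 2.68-fold, from 110.9 and 68.8 to 255.8 and 214.1 (1.42 ± 0.33 SE, adjusted p = 0.0399, and 0.0755 under quantile normalization). Prpf31 of the U4/U6 particle read 105.9 and 117.1 against 209.9 and 191.6 (0.85 ± 0.27 SE, adjusted p = 0.0911). Prpf8, the protein at the catalytic centre, lay slightly lower without overlap, 1249.0 and 1293.0 against 1069.9 and 1106.3 (-0.22 ± 0.21 SE, adjusted p = 0.522). Prpf6, which bridges the tri-snRNP, read 721.0 and 641.6 against 426.3 and 492.8 (-0.57 ± 0.24 SE, adjusted p = 0.162). Prpf4b, a kinase, read 63.2 and 61.8 against 122.2 and 65.9 (0.52 ± 0.40 SE), with only PEPCK-TAg 1 high. Prpf19, a ubiquitin ligase of the activated spliceosome, gave 0.44 ± 0.36 SE and -0.070 ± 0.33 SE in its 2 probe sets. The class median of 0.44 was 0.081 under quantile normalization, 0.19 without PEPCK-TAg 1 and 0.26 without wild-type 1.

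RBM proteins are a loose family named for an RNA-binding motif, and 4 of 15 probe sets tested rose. Rbm39 (CAPER alpha), a relative of U2AF2, rose 4.04-fold in one probe set, from 84.9 and 61.1 to 312.7 and 270.6 (2.01 ± 0.30 SE, adjusted p = 0.00895). The brighter Rbm39 probe set also had no overlap but was not called, with 359.5 and 317.1 against 661.5 and 470.2 (0.72 ± 0.27 SE, adjusted p = 0.131). Rbm25, which works with the U1 particle, rose 3.67-fold from near the filter level, 46.3 and 30.4 to 158.6 and 119.5 (1.87 ± 0.37 SE, adjusted p = 0.0238). It was the only called member without both wild-type arrays above the filter level. Rbm8a (Y14), a core subunit of the exon junction complex, rose 2.69-fold, from 185.4 and 177.3 to 479.7 and 497.0 (1.43 ± 0.24 SE, adjusted p = 0.0132).

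Rbmxl1, a retrocopy of Rbmx, rose 2.83-fold, from 143.9 and 123.5 to 411.0 and 347.1 (1.502 ± 0.26 SE, adjusted p = 0.0156). Both probe sets of Rbmx itself (hnRNP G) leaned the same way without passing, at 1.11 ± 0.37 SE and 0.90 ± 0.31 SE (adjusted p = 0.103 and 0.112). Because the copies are so alike, their probes may share transcripts, and the rise cannot be assigned to either gene alone. Rbm14, a paraspeckle protein, read 131.2 and 180.3 against 440.4 and 265.5 (1.15 ± 0.34 SE, adjusted p = 0.0764). Rbm17, Rbm42, Rbm6 and Rbm38 gave 0.20, 0.54, 0.61 and 0.44, while Rbm15, Rbm18 and Rbm4b gave -0.041, -0.025 and -0.23, all uncalled. The RBM median was 0.72, and 0.97 without PEPCK-TAg 2.

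**Figure D3:**
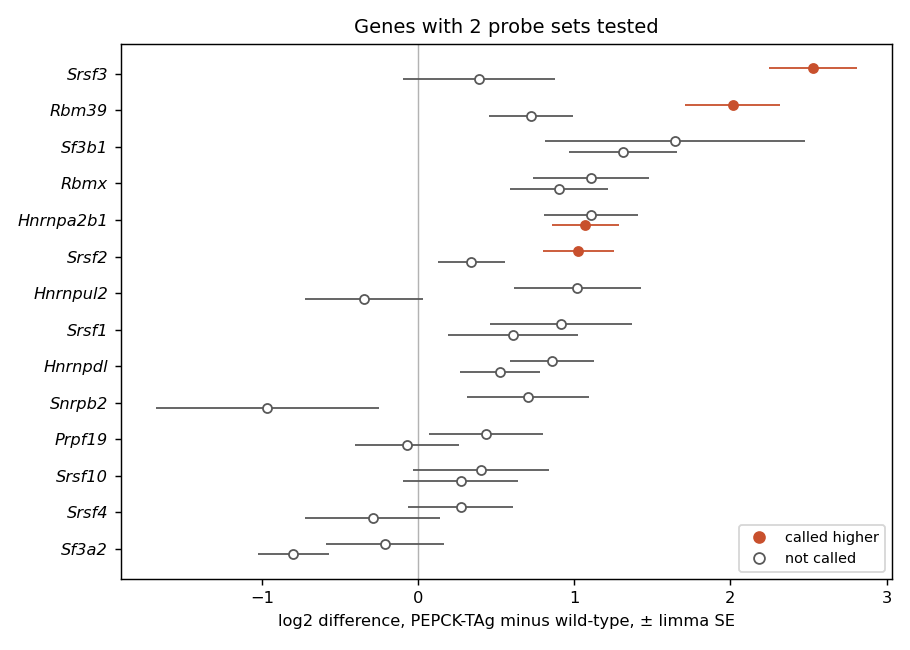
Log2 differences with limma's standard error for the 14 member genes that have 2 probe sets tested. Filled points were called higher. Hnrnpa2b1, Rbmx and Sf3b1 gave similar values in both, Srsf3, Rbm39 and Srsf2 differed in size, and Hnrnpul2, Snrpb2, Prpf19 and Srsf4 differed in sign.

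Several probe sets for 1 gene allow a check within the arrays. Of the 20 member genes with more than 1 probe set, 14 had 2 tested, and 8 of those 14 gave unlike signs or unlike calls. Under quantile normalization Srsf10 gave unlike signs as well. No gene was called by more than 1 probe set. Probe sets of 1 gene can sit on different transcript ends, and the part of this in their differences was not tested. The array's suffixes mark 8 members whose probes were chosen under relaxed rules (_r_at), and the 3 of these that were tested had a median of -0.80, beside -0.34 over all 394 such probe sets tested. The 66 tested members with a plain suffix had a median of 0.65 and 14 of the 17 calls.

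**Figure D4:**
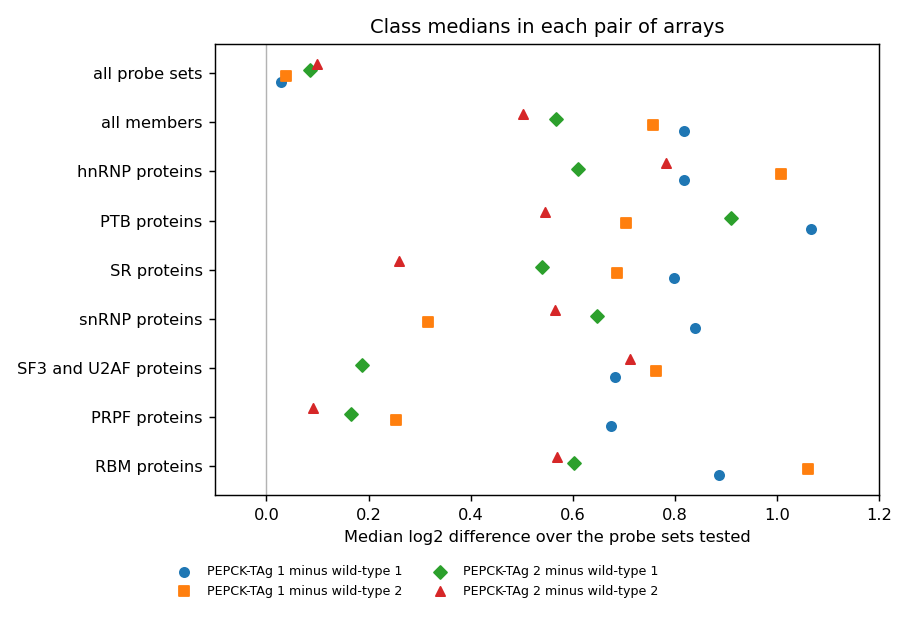
Median log2 difference over the probe sets tested in each of the 4 pairs of 1 PEPCK-TAg and 1 wild-type array, for all probe sets, all members and each class. Every pair gives a positive median for every class. Over all members the medians run from 0.50 to 0.82, while those of all probe sets stay between 0.029 and 0.099.

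The direction of the class medians was the same in each pair of arrays, and the size varied. Over all members the medians against wild-type 1 and 2 were 0.82 and 0.76 for PEPCK-TAg 1 and 0.57 and 0.50 for PEPCK-TAg 2. The wild-type arrays differed from each other by a median of -0.024 and the PEPCK-TAg arrays by 0.18 (array 1 minus array 2). PEPCK-TAg 1 thus stood higher in these genes than PEPCK-TAg 2. Wild-type 1 and PEPCK-TAg 1 were scanned on the same day, and that pair gave 0.82. Wild-type 2 was the only array read on the second type of scanner, so a block for scanner type has the effect of leaving that array out. It gave a median of 0.73, and not all of the 17 members named above kept their call. The PEPCK-TAg arrays share a chip lot that neither wild-type array has, so lot and group cannot be told apart.

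Members that rose were found at all signal levels. The 27 members with the lowest mean signals (38.0 to 158.7) had a median log2 difference of 0.61 and 5 calls. The middle 27 gave 0.54 and 3 calls. The brightest 27 (415.2 to 3300) gave 0.72 and 9 calls. Over all probe sets tested in those 3 ranges the medians were 0.13, 0.12 and -0.066, and 9.74%, 9.32% and 5.80% were called higher.

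The 10 members left untested were dim on most arrays. They were probe sets of Hnrnpab, Hnrnpdl, Hnrnpu, Prpf39, Ptbp2, Rbm14, Snrpb and Rbm22 and 2 of Srsf1. Rbm22, at 3.9 and 3.6 against 6.4 and 7.9, was the only member gene with no probe set tested.

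Because many members moved together, the stretches before their transcription starts were compared. RefSeq's promoter table (assembly GRCm38.p6) held 59 of the 67 member genes tested and 15 of the 17 called. The windows shown are the 250 bases before the start of the called member with the smallest p in each class, for the 5 such classes the table covers. Capitals mark the motifs searched on both strands: the E2F motif (spelled TTTCCCGC, TTTGGCGC, TTTGCCGC or TTTCGCGC), the ETS motif CCGGAAGT, the CCAAT box, the GC box GGGCGG, the cAMP response element TGACGTCA and the TATA box TATAAA. Motif and gene choices were made with the results known. Rbm39 has 2 starts in the table, and the first is shown.
Srsf3, chr17:29032410-29032659, plus strand: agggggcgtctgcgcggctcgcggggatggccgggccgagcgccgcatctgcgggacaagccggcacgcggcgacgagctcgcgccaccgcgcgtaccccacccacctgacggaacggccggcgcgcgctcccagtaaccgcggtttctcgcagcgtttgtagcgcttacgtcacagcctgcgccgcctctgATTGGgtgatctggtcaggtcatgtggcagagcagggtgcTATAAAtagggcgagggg
Snrpe, chr1:133610281-133610530, minus strand: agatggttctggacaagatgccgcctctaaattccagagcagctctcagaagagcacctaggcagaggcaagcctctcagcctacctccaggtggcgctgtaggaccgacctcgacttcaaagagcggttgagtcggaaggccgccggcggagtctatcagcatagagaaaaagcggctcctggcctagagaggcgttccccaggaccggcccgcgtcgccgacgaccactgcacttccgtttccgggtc
Rbm39, chr2:156180239-156180488, minus strand: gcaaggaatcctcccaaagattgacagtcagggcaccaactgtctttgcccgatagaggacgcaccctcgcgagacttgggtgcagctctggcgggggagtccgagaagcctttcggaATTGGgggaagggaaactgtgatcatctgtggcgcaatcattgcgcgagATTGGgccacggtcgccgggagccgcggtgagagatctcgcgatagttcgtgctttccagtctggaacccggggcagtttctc
Hnrnpm, chr17:33685459-33685708, minus strand: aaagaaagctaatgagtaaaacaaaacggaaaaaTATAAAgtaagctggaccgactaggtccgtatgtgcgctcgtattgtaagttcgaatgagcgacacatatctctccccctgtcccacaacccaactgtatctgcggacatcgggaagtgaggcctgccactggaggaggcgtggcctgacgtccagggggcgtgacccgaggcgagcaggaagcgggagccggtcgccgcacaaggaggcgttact
Prpf38a, chr4:108579337-108579586, minus strand: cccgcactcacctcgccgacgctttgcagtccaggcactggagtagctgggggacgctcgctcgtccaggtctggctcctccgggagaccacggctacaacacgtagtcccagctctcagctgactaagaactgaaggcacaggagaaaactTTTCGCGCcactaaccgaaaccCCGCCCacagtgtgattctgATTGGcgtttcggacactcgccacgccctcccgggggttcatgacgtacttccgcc

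These windows have no motif in common. The Prpf38a window holds an E2F spelling 98 bases before the start, a GC box at 76 and a reversed CCAAT box at 56. That of Srsf3 holds a reversed CCAAT box at 58 and a TATA box at 18. Rbm39 has 2 reversed CCAAT boxes, Hnrnpm only a TATA spelling far upstream, at 216, and Snrpe none of the motifs. Over the 59 member genes found, 5 (8.47%) held an E2F spelling, namely Hnrnpr, Prpf38a, Srsf1, Srsf10 and U2af1, against 2.16% of the 27025 genes in the table. Of these 5 only Hnrnpr and Prpf38a were called.

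A GC box occurred in 61.0% of the member genes, 53.3% of those called and 35.4% of all genes. The CCAAT box gave 52.5%, 60% and 37.5% in the same order, and the ETS motif 11.9%, 6.67% and 3.23%. TATA spellings were found in 8.47% of member genes, in 4 of the 15 called (26.7%) and in 14.3% of all genes, and the cAMP response element in 1.69% and 1.77%. Member windows were also richer in G and C, with a median of 60.4% against 52.4% over all genes, and the part of this in the shares was not tested. All genes in the table include those not on the array. A match is a run of letters and not a measured binding site.

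Other genes of RNA processing were taken from 6 lists outside the symbol rule. Together these had 122 genes tested, of which 18 rose (14.8%, against 9.10% of all probe sets tested) and none fell, with a median log2 difference of 0.49. The share was above 9.10% mainly in 3 lists, and it was 3.45% for spliceosome helicases and core proteins, 6.25% for 3' end factors and 10% for exon junction and export factors. For each gene the brightest tested probe set was used. LSm proteins and snRNP assembly factors gave 5 rises among 15: Lsm8, of the ring around U6 RNA, rose 6.18-fold (74.8 and 63.8 to 386.1 and 472.6, log2 difference 2.63 ± 0.28 SE, adjusted p = 0.00273), and Lsm7 and Lsm3 of the same ring rose 3.11-fold and 3.08-fold. Lsm4 and Prmt1, an arginine methyltransferase, were the others. SR-related proteins and SR kinases gave 5 rises among 19. These were Acin1 (2.78 ± 0.42 SE), Luc7l3 (1.76 ± 0.29 SE), Rnps1 (1.67 ± 0.29 SE), Tra2b and Pnn. The wild-type arrays of Acin1, 19.2 and 38.6, were both below the filter level.

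Regulatory RNA-binding proteins outside the rule gave 6 rises among 34, led by Fmr1, the fragile X protein (80.8 and 76.6 to 342.1 and 366.4, 2.17 ± 0.26 SE, adjusted p = 0.00427), Nudt21 (1.79 ± 0.28 SE) and Ybx3 (1.55 ± 0.29 SE). Exon junction, export and surveillance factors gave 1 among 10, the export adaptor Alyref, which rose 4.23-fold (137.4 and 174.9 to 539.9 and 796.5, adjusted p = 0.00771). Factors of 3' end processing gave 1 among 16, again Nudt21, which stands in both lists. Helicases and further core proteins of the spliceosome gave 1 among 29, Cdc5l, which rose 2.16-fold (159.4 and 145.7 to 311.1 and 349.9, 1.11 ± 0.25 SE, adjusted p = 0.0364), and their median was 0.38.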

How the data were processed

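Liver RNA was read on 4 Affymetrix arrays, 2 per group. The authors deposited 1 signal per probe set, an intensity summarised from its probes with MAS5 per the submitters' processing notes (version not given in the sources used here) and scaled to trimmed means of 250.1 to 250.2. Further deposited text files per array gave only hybridisation and scan settings, which served as batches.

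Signals were rescaled to a common trimmed mean without the 66 control probe sets, floored at 10.6 (the 20th percentile) and put on the log2 scale. Probe sets above 41.3 (the 40th percentile) on at least 2 arrays were tested, 7877 of 12422. Differences were tested with limma 3.58.1 in R 4.3.3 (eBayes with an intensity trend, 2-sided), with Benjamini-Hochberg adjustment over all 7877. SE is limma's moderated standard error. An exact permutation of 2 against 2 arrays cannot go below p = 0.333. The scripts were tested on simulated data. The number of arrays limits the precision.

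Members and gene lists were chosen with earlier results of these data known. Named are all called members, up to 3 more per class by p, a set of well-known members, further probe sets of these genes, and up to 3 called genes per other list. Members named beyond that rule were chosen after their values were seen. Symbols came from the platform annotation (10833 probe sets with 1 symbol, 396 with several, 1193 with none), and all 91 members matched RefSeq's gene table. Alternatives covered normalization, floor, filter, tests, batches and each array left out.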

Additional observations from a re-analysis of the deposited data

How the results depend on the processing

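With 2 arrays per group the number of calls varied with the setting. None of the 17 called members changed sign under any alternative run, but they had been picked by their differences. Their smallest log2 difference in any pair of arrays was 0.72, so leaving out or blocking arrays could not turn a sign. Against 17 members called higher and 0 lower, the counts were 2 higher with no filter (31 at an unadjusted p under 0.05), 0 with the fluidics station as a block (in effect, PEPCK-TAg 2 left out), 29 higher and 1 lower at an adjusted p under 0.1, and 0 to 25 higher and 0 to 1 lower with single arrays left out. With no filter Snrpe and Rbm8a were the calls left. The share of all probe sets called higher moved with the setting too. It was 9.10% in the main fit, 1.04% with no filter and 14.1% at an adjusted p under 0.1. Whether the replicate numbers pair the arrays was not settled. Wild-type 1 and PEPCK-TAg 1 were scanned on the same day. The difference of wild-type 1 minus 2 correlated with that of PEPCK-TAg 1 minus 2 at r = 0.253, which cannot decide this with only 2 pairs. With a replicate block 32 members were called higher and 2 lower, beside 15.7% and 8.04% of all probe sets tested.

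Medians of the log2 difference with single arrays left out ran from 0.54 to 0.80 over all members, 0.74 to 0.99 for hnRNP, 0.62 to 0.99 for PTB, 0.33 to 0.85 for SR, 0.46 to 0.80 for snRNP, 0.39 to 0.76 for SF3 and U2AF, 0.19 to 0.50 for PRPF and 0.73 to 0.97 for RBM proteins. The snRNP median was 0.23 with the floor at the 40th percentile, 0.35 with no filter, 0.996 with the filter at the 60th percentile and 0.47 with the brightest probe set of each gene. That of PTB proteins was 1.45 with no filter and 1.45 with the filter at the 60th percentile, and that of PRPF proteins 0.081 under quantile normalization. The station block gave 0.80 over all members, 0.68 for SR and 0.97 for RBM proteins. The scanner block gave 0.85 for SR and 0.39 for SF3 and U2AF proteins. The pair of 1 scan day gave 0.82 over all members, 1.07 for PTB and 0.80 for SR proteins. Each time, the 1.45 of PTB proteins is the value of the Ptbp3 probe set. The station and scanner blocks act by leaving an array out, and the pair of 1 scan day uses 1 array per group. The cause of the other shifts was not tested. A random block for chip lot was not fitted.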
